A study of Mus musculus with 4 samples.

Results

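The 10 regulators described here, *Ppargc1a*, *Ppargc1b*, *Esrra*, *Esrrb*, *Esrrg*, *Ppara*, *Ppard*, *Pparg*, *Nrf1* and *Tfam*, were chosen by name out of the 24454 genes of a count table from RNA-seq of mouse hearts at P7. They are the PGC-1 coactivators, the estrogen-related receptors (ERRs), the peroxisome proliferator-activated receptors (PPARs) and a pair of factors for mitochondrial biogenesis. All 10 passed the filter on low counts, as did 14266 genes in all. Ctrl hearts (libraries WH7 and WH8) came from *miR-128*TetRE mice, which carry *miR-128* behind a tetO promoter at the Rosa26 locus and no activator. *MiR-128*OE hearts (WH9 and WH10) came from *α-MHC*-tTA; *miR-128*TetRE mice, in which the *α-MHC* promoter drives the activator tTA in cardiomyocytes (CMs), so that *miR-128* is switched on there unless doxycycline is given. The labels do not give the doxycycline schedule of these P7 hearts, so when overexpression began is not known here. All mice were on a C57BL/6 background, and the tTA transgene and *miR-128* overexpression cannot be told apart in this design. The labels do not say whether each library came from 1 animal or a pool, so p-values measure the spread between these libraries, which may be technical.

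The PGC-1 proteins do not bind DNA themselves. They dock onto nuclear receptors such as the ERRs and PPARs and onto NRF1, and recruit the enzymes that open chromatin, so that genes of oxidative metabolism are transcribed. In the heart this circuit is known for the postnatal switch from glucose and lactate to fatty acids as fuel, with PPARα acting mostly on fatty acid uptake and oxidation, the ERRs on the citric acid cycle, the respiratory chain and contractile energetics, and NRF1 and TFAM on the supply of mitochondrial proteins and mitochondrial DNA.

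Matches to the seed of *miR-128* were looked for in the regulators, because the overexpressed microRNA pairs through these bases. The mature microRNA is listed by RefSeq (GRCm38.p6) at 2 loci, chr1:128202404-128202424 on the + strand and chr9:112118644-112118664 on the − strand. It is printed first, with the seed (bases 2 to 8) in capitals. The matches follow in the sense of the mRNA with up to 10 bases on each side, and the bases that pair with the seed, or the A opposite base 1, are in capitals. An 8mer pairs with the whole seed and has the A, a 7mer-m8 lacks the A and a 7mer-A1 lacks the pairing at base 8.
miR-128-3p: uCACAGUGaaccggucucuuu
Ppargc1a 7mer-m8: cttatgcagaCACTGTGggtagcccat
Esrrb 7mer-m8: cccccagccaCACTGTGgagagggggt
Pparg 7mer-A1: taagaaatttACTGTGAaaaagcattt
Nrf1 8mer: cagtcattgtCACTGTGAgcttctgtgc
Nrf1 7mer-A1: ttttttttaaACTGTGAagctgtccag
Tfam 7mer-A1: ggctagatagACTGTGAagtgactttc
Tfam 7mer-m8: tacagaagacCACTGTGtggagcgaga

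These are all the 7mer and 8mer matches that the regulators hold in their 3′UTRs, where the longest annotated 3′UTR stands for each gene (GENCODE M21, GRCm38). The match of *Ppargc1a* lies at chr5:51455080-51455086 on the − strand and that of *Esrrb* at chr12:86520584-86520590 on the + strand. *Pparg* has its match at chr6:115490283-115490289 on the + strand, *Nrf1* at chr6:30152909-30152916 and chr6:30153280-30153286 on the + strand, and *Tfam* at chr10:71228290-71228296 and chr10:71227265-71227271 on the − strand. Thus 5 of the 10 regulators hold a 7mer or 8mer, against 4474 of 13465 tested genes with a 3′UTR (33.2%). UTR length differs among the regulators, from 204 nt in *Pparg* to 3930 nt in *Ppargc1a*, and the median over the tested genes was 1375 nt. *Ppargc1b* (547 nt), *Esrra* (774 nt), *Esrrg* (3746 nt), *Ppara* (1561 nt) and *Ppard* (1625 nt) hold neither kind, and *Esrrg* has only shorter matches of 6 bases, of which there are 2. A match is a stretch of letters and not a shown target.

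Library totals ranged from 8096870 (WH8) to 14359838 (WH10) counts, and 3 counts, the detection floor, equal 0.209 to 0.371 CPM (counts divided by the library total and put on one scale). All other CPM values below used totals over the genes tested, multiplied by TMM scaling factors. The labels give no sex, yet *Xist* had 11339 to 14543 counts in Ctrl and 94 to 132 in *miR-128*OE libraries, and *Ddx3y* on the Y chromosome had 7 to 13 and 1442 to 1768. Condition and sex therefore cannot be told apart here. The hairpin gene *Mir128-1* had no reads, and for *Mir128-2* the counts of WH7, WH8, WH9 and WH10 were 0, 0, 2 and 10, which is too few to check the overexpression. Cardiomyocyte markers were abundant in every library, with a summed level of 32600 to 33900 CPM in Ctrl and 39800 to 40500 CPM in *miR-128*OE hearts. Of these 7 markers 3 were higher, among them *Myh6*, the most counted in every library, and 1 (*Ryr2*) was lower. Over all genes tested, 16.5% were higher and 15.0% lower by the test defined below. The 5 atrial markers summed to 5890, 702, 2110 and 2710 CPM in WH7, WH8, WH9 and WH10, and 0 of them was called. In heart tissue, fewer cells of a type and less RNA per cell cannot be told apart.

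Of the 10 regulators, 3 were higher in *miR-128*OE hearts (*Ppargc1a*, *Esrrb* and *Ppara*), 1 was lower (*Ppargc1b*) and 6 did not pass the test. A gene counts as higher or lower at an adjusted p under 0.05 from the quasi-likelihood test of edgeR, with Benjamini-Hochberg adjustment over 14266 genes, and SE stands for the standard error of a log2 fold change. Among all genes tested 31.5% were called, 16.5% higher and 15.0% lower. With library totals in place of the TMM factors that were used for scaling, the split over all genes was 1611 higher to 2948 lower in place of 2347 to 2143, and the genes tested had a median of −0.11 on the log2 scale in place of −0.01. The median of the 10 regulators was 0.28 on the log2 scale. In 7 of them both *miR-128*OE libraries lay above both Ctrl libraries, against 33.7% of all genes tested, and in 1 both lay below, against 34.4%. The plot of normalized counts by library shows each regulator on its own scale, after TMM scaling to a library of mean effective size.

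**Figure D1:**
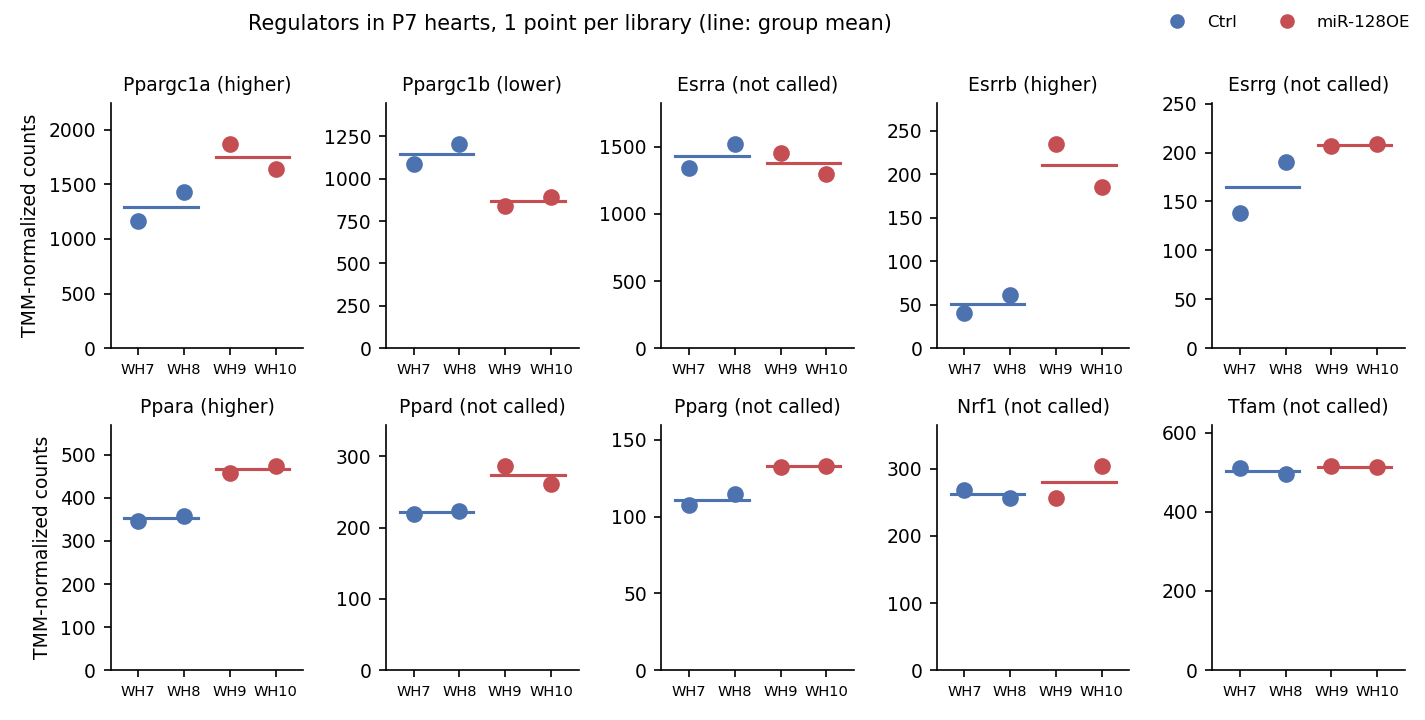
TMM-normalized counts (y axis, from 0) of each regulator in the 4 libraries (x axis), with Ctrl in blue, *miR-128*OE in red and the group mean as a line, and the call in each title. *Esrrb* rises from 40.2 and 60.8 to 235 and 186, *Ppargc1b* falls in both *miR-128*OE libraries, and the points of *Esrra* and *Nrf1* overlap between the groups.

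The 2 coactivators moved in opposite directions. *Ppargc1a* (chromosome 5, 51454250 to 51567726, − strand, with gene positions from GENCODE M21 on GRCm38) encodes PGC-1α, the form that cold, fasting and exercise induce. It had 1162 and 1427 normalized counts in WH7 and WH8 (Ctrl) against 1867 and 1636 in WH9 and WH10 (*miR-128*OE), so that WH7 was the lowest library and WH9 the highest, without overlap. The log2 fold change was 0.44 (SE 0.11, edgeR adjusted p = 0.0149), a rise of 1.36-fold. *Ppargc1b* (chromosome 18, 61298136 to 61400431, − strand) encodes PGC-1β, the paralog that helps to set basal mitochondrial content. It had 1087 and 1204 normalized counts in WH7 and WH8 (Ctrl) against 842 and 895 in WH9 and WH10 (*miR-128*OE). Again the groups did not overlap, and the Ctrl libraries were the higher ones, with a log2 fold change of −0.40 (SE 0.09, edgeR adjusted p = 0.00871). Leaving out WH9 lost both calls, and leaving out WH10 lost that of *Ppargc1b* but not that of *Ppargc1a*. Such fits leave a single *miR-128*OE library, and calls over all genes fell as well. Without WH9 the log2 fold change was 0.35 for *Ppargc1a* and −0.34 for *Ppargc1b*. Without WH10 it was 0.55 for *Ppargc1a* and −0.43 for *Ppargc1b*.

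Because the coactivators moved apart, their balance shifted while their sum did not separate the groups. Per kilobase of exon, *Ppargc1a* took 39.3% and 41.8% of the summed PGC-1 level in Ctrl against 57.3% and 52.5% in *miR-128*OE hearts. By this measure it was the lesser form in both Ctrl libraries and the greater form in both others. In counts not divided by exon length it was the greater form in every library, so its place in Ctrl depends on the exon lengths used. The summed level was 38.1 and 44.0 CPM per kilobase in Ctrl against 42.0 and 40.1 in *miR-128*OE hearts, which overlap. A ratio of 2 genes within a library does not depend on how libraries are scaled. The log2 ratio of *Ppargc1a* to *Ppargc1b* counts was 0.0962 and 0.245 in Ctrl against 1.15 and 0.87 in *miR-128*OE hearts, a difference of 0.84. An exact two-sided permutation test gave p = 0.333, which is the smallest that 2 libraries against 2 allow, and 3 such ratios were tested. Beside this, markers of brown adipocytes, cells in which PGC-1α is abundant, summed to 53.6 and 56.3 CPM in Ctrl against 90.3 and 73.2 in *miR-128*OE hearts. Of 4 such genes 3 were tested and 2 were higher, against 16.5% of all genes tested. Among them was *Ucp1*, with 56, 3, 253 and 189 counts in WH7, WH8, WH9 and WH10. *Prdm16* was not called (log2 fold change 0.005, edgeR adjusted p = 0.98), and *Elovl3*, with 1 count in every library, was not tested. The part of these markers in the result was not tested.

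Among the ERRs, orphan receptors that bind DNA as monomers or dimers and need PGC-1 for most of their activity, only *Esrrb* passed the test. *Esrrb* (chromosome 12, 86361117 to 86521628, + strand), best known from pluripotent cells and the placenta, had 44 and 43 reads in Ctrl against 237 and 221 in *miR-128*OE hearts. Normalized, these were 40.2 and 60.8 against 235 and 186 counts, with every *miR-128*OE value over each Ctrl value. The log2 fold change was 2.09 (SE 0.23, edgeR adjusted p = 0.00028), or 4.27-fold, higher than that of 99.6% of the genes tested. It was called under all 14 alternatives of scaling, filter, test and libraries, with log2 fold changes from 1.78 to 2.38.

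*Esrra* (chromosome 19, 6910977 to 6921813, − strand), the main ERR of adult muscle and heart, had 1344 and 1519 normalized counts in WH7 and WH8 (Ctrl) against 1455 and 1297 in WH9 and WH10 (*miR-128*OE). The groups overlapped, and the log2 fold change was −0.06 (SE 0.09, edgeR adjusted p = 0.688), with the opposite sign without WH8 (0.04) and without WH10 (0.04). Its exons overlap those of *Trmt112* on the other strand, and how the authors' counting treated strand is not given in the sources used here, so reads in the shared stretch cannot be assigned to one gene or the other. *Trmt112* itself was not called (edgeR adjusted p = 0.614). *Esrrg* (chromosome 1, 187608791 to 188214885, + strand), which turns on oxidative genes in the heart around birth, had 138 and 191 normalized counts in WH7 and WH8 (Ctrl) against 207 and 209 in WH9 and WH10 (*miR-128*OE). Both *miR-128*OE values exceeded both Ctrl values, but the Ctrl libraries lay far apart, and the log2 fold change of 0.36 (SE 0.17, edgeR adjusted p = 0.14) did not pass the test. Without WH8, the higher Ctrl library, *Esrrg* was called (log2 fold change 0.59, adjusted p = 0.0131), and without WH7 its log2 fold change was 0.12 (adjusted p = 0.592).

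*Esrra* remained the leading ERR in every library. Per kilobase of exon it took 91.4% and 89.5% of the summed ERR level in Ctrl and 82.1% in each *miR-128*OE library. *Esrrb* took 1.98% and 2.6% in Ctrl against 9.61% and 8.54% in *miR-128*OE hearts, which made it about as abundant as *Esrrg*, at 8.25% and 9.33%. In level, *Esrrb* went from 0.709 ± 0.204 to 2.95 ± 0.484 CPM per kilobase (SD, n = 2). The summed ERR level was 28.5 and 32.9 CPM per kilobase in Ctrl against 34.3 and 30.6 in *miR-128*OE hearts, which overlap. The log2 ratio of *Esrra* to *Esrrg* counts was 3.28 and 2.99 in Ctrl against 2.81 and 2.63 in *miR-128*OE hearts, a difference of −0.41 (exact permutation test, two-sided, p = 0.333, the smallest possible).

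**Figure D2:**
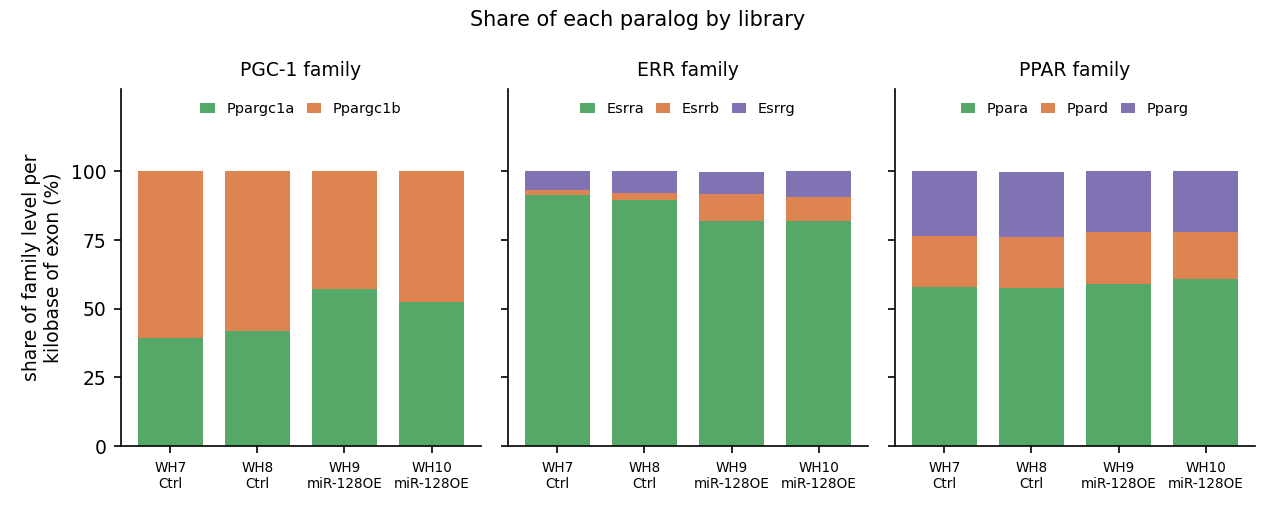
Share of each paralog (stacked bars, % of the summed level per kilobase of exon) in the PGC-1, ERR and PPAR families by library. *Ppargc1a* goes from 39.3% and 41.8% in Ctrl to 57.3% and 52.5% in *miR-128*OE hearts and *Esrrb* from 1.98% and 2.6% to 9.61% and 8.54%, while the PPAR shares move by a few percentage points.

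The PPARs, fatty acid receptors that bind DNA together with a retinoid X receptor (RXR), all had higher values in both *miR-128*OE libraries, and 1 of the 3 passed the test. *Ppara* (chromosome 15, 85734983 to 85802819, + strand), the main PPAR of fatty acid oxidation in heart and liver, had 348 and 359 normalized counts in WH7 and WH8 (Ctrl) against 458 and 474 in WH9 and WH10 (*miR-128*OE). The gap between the groups was wide against the spread within each, and the log2 fold change was 0.40 (SE 0.10, edgeR adjusted p = 0.0156). That call was near the threshold: the adjusted p was 0.0583 with DESeq2, 0.0501 with library totals as scaling, 0.098 without WH9 and 0.112 without WH10, where the log2 fold changes were 0.44 and 0.39.

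*Ppard* (chromosome 17, 28232700 to 28301474, + strand), the broadly expressed PPAR, had 219 and 223 normalized counts in WH7 and WH8 (Ctrl) against 286 and 261 in WH9 and WH10 (*miR-128*OE). Its groups did not overlap, with a log2 fold change of 0.30 (SE 0.13, edgeR adjusted p = 0.0931). *Pparg* (chromosome 6, 115360951 to 115490399, + strand), the PPAR that drives adipocyte formation, had 108 and 114 normalized counts in Ctrl and 133 in each *miR-128*OE library. The difference of 0.26 on the log2 scale (SE 0.17, edgeR adjusted p = 0.264) did not pass the test either. White adipocyte markers summed to 4.82 and 4.8 CPM in Ctrl against 7.32 and 8.5 in *miR-128*OE hearts. Of 6 listed 3 were tested and 1 was higher, against 16.5% of all genes tested. This was *Adipoq*, with 13 to 16 counts in Ctrl and 34 to 45 in *miR-128*OE libraries. The part of the white adipocyte markers in the *Pparg* values was not tested.

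The shares of the 3 receptors changed little. *Ppara* took 57.7% to 57.9% of the summed PPAR level per kilobase in Ctrl and 59.0% to 60.8% in *miR-128*OE hearts. The sum itself was 13.3 and 13.8 CPM per kilobase in Ctrl against 17.2 and 17.3 in *miR-128*OE hearts, without overlap. The log2 ratio of *Ppara* to *Ppard* counts was 0.662 and 0.683 in Ctrl against 0.679 and 0.86 in *miR-128*OE hearts, a difference of 0.0969 within overlapping values (exact permutation test, two-sided, p = 0.667).

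*Nrf1* and *Tfam*, which stand downstream of PGC-1 in mitochondrial biogenesis, did not differ detectably. *Nrf1* (chromosome 6, 30047988 to 30153458, + strand), the activator of nuclear genes for the respiratory chain, had 269 and 256 normalized counts in WH7 and WH8 (Ctrl) against 256 and 304 in WH9 and WH10 (*miR-128*OE). Only WH10 stood above the others, and the log2 fold change was 0.09 (SE 0.13, edgeR adjusted p = 0.616). *Tfam* (chromosome 10, 71225464 to 71238280, − strand), which packs and transcribes mitochondrial DNA, had 510 and 496 normalized counts in WH7 and WH8 (Ctrl) against 515 and 512 in WH9 and WH10 (*miR-128*OE). The *miR-128*OE values lay just above the Ctrl values, and the log2 fold change was 0.03 (SE 0.09, edgeR adjusted p = 0.846). With library totals as scaling, the log2 fold change was −0.00485 for *Nrf1* and −0.07 for *Tfam*, or 0.11 and 0.04 relative to the median of all genes, and without WH10 it was −0.02 for *Nrf1*.

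**Figure D3:**
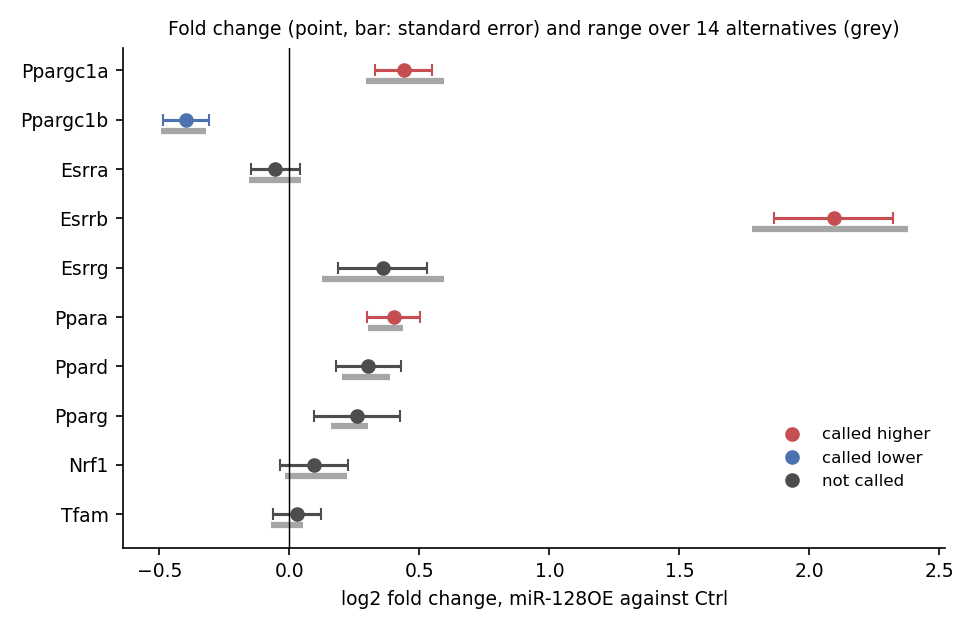
Log2 fold change of each regulator (x axis, *miR-128*OE against Ctrl; point, with the standard error as a bar) and, in grey, its range over 14 alternatives of scaling, filter, test and libraries. *Esrrb* stays between 1.78 and 2.38 and *Ppargc1b* between −0.50 and −0.32, and the ranges of *Esrra*, *Nrf1* and *Tfam* span 0.

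In level per kilobase of exon, the regulators ran from *Esrra* at 27.2 CPM per kilobase, the mean of 4 libraries, to *Esrrb* at 1.83. *Ppargc1b* at 21.4 and *Ppargc1a* at 19.6 came next to *Esrra*, and the library range of *Ppargc1b* overlaps those of the other 2, which do not overlap each other. *Tfam* at 9.73 and *Ppara* at 9.07 followed, also with overlapping ranges, but below the lowest library of *Ppargc1a* (15.0). *Pparg* at 3.51, *Ppard* at 2.80, *Esrrg* at 2.55 and *Nrf1* at 2.24 formed a low group in which each neighbor overlaps the next. In the mean of the *miR-128*OE libraries *Ppargc1a* stood above *Ppargc1b*, *Ppara* above *Tfam*, and *Esrrb* above *Nrf1* and *Esrrg*, though in WH10 *Esrrb* (2.61) was below *Esrrg* (2.85). No test was made of the order.

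Short motifs were sought on both strands of the promoters that RefSeq lists (GRCm38.p6, 250 bases before to 50 after each start), and 9 of the 10 regulators have an entry. A gene was counted if any of its promoters held the motif. The NRF1 core GCGCATGCG is found in 1.95% of the 27025 genes with an entry and in 3.8% of the 11250 tested ones. Among the regulators it is only in *Ppara*, where it overlaps itself on both strands, from 31 and 30 bases before the start. The ERR half-site core AAGGTCA is in 5.38% of genes with an entry (3.91% of tested ones) and the longer form TCAAGGTCA that contains it in 0.466%. A pair of AGGTCA spaced by 1 base (DR1), as PPAR and RXR bind, is in 0.0481%. None of these is in the 9 regulators with an entry. *Perm1*, a striated muscle gene that ERRs and PGC-1 are known to induce and whose product acts with them, holds AAGGTCA 202 bases before its start on the other strand, so that it reads TGACCTT. The promoters of *Ppara* (chr15:85735526-85735825, + strand) and *Perm1* (chr4:156215677-156215976, + strand) are printed with these motifs in capitals, as examples chosen after the values of both genes were seen. The half-site core is also in *Acadm* and *Rxrg*, which were higher, in *Mef2c*, which was lower, and in *Rxra*, *Prkag2* and *Twnk*, which were not called. It is in 0 of the 10 ERR targets with an entry, and the DR1 is in 0 of 22 PPAR targets.
Ppara promoter: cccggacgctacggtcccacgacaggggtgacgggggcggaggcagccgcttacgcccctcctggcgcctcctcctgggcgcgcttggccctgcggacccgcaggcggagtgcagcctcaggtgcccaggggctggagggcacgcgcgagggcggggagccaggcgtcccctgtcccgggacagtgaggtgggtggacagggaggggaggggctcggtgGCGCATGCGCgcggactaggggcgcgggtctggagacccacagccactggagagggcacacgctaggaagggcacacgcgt
Perm1 promoter: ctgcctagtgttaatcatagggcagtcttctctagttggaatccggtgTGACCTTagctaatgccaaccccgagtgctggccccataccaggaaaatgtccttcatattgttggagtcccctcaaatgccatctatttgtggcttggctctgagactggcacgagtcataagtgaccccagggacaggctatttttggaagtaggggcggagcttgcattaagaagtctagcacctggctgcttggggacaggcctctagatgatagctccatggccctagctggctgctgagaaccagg

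Of 18 coregulators and receptor partners of these regulators, 5 rose (27.8%, against 16.5% of all genes tested) and 4 fell (22.2%, against 15.0%), and the median log2 fold change was −0.07. *Perm1* had 737 and 971 normalized counts in WH7 and WH8 (Ctrl) against 2031 and 1875 in WH9 and WH10 (*miR-128*OE), a 2.3-fold rise without overlap (log2 fold change 1.20, SE 0.12, edgeR adjusted p = 0.000199). *Med1*, the Mediator subunit through which PGC-1 reaches RNA polymerase, rose by 0.52 and *Prmt1*, which methylates PGC-1α, by 0.45 on the log2 scale. *Ncor1*, a corepressor of nuclear receptors, fell by 0.61, the acetyltransferase gene *Crebbp* fell by 0.66 and the coactivator gene *Ncoa3* fell by 0.48 on the log2 scale. Without WH9 the adjusted p was 0.0681 for *Prmt1* and 0.0896 for *Ncoa3*, and 2 genes of the list were higher and 2 lower. *Pprc1*, the third PGC-1 relative (log2 fold change 0.19, adjusted p = 0.181), the corepressor gene *Nrip1* (0.44, adjusted p = 0.237) and *Rxra*, an RXR partner of the PPARs (−0.06, adjusted p = 0.692), did not pass the edgeR test, and *Rxra* was at 0.08 without WH10. Exons of *Ncor1*, *Ncoa3* and *Pprc1* overlap other genes.

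Of 20 kinases and factors that act on the regulators from upstream, 2 rose (10%, against 16.5% of all genes tested) and 2 fell (10%, against 15.0%), and the median was −0.01, as it was for all genes. Both shares lay below those of all genes, a difference that was not tested in a list of 20. *Prkaa2*, the muscle form of the AMPK catalytic subunit, which phosphorylates PGC-1α, rose by 0.47 on the log2 scale (edgeR adjusted p = 0.00821), and *Ppp3r1*, the calcineurin regulatory subunit, rose by 0.50 (adjusted p = 0.00218). *Creb1* and *Mef2c*, whose products activate the *Ppargc1a* promoter, fell by 0.53 and by 0.42 (adjusted p = 0.00138 and 0.00322). *Ppargc1a* itself was higher, and the part of these 2 genes in its level was not tested. The other 16 genes of the list were not called. Without WH9 *Prkaa2* (adjusted p = 0.111) and *Mef2c* (0.0591) lost their calls, as *Mef2c* did without WH10 (0.0633). Exons of *Ppp3r1* overlap those of *Wdr92* on the same strand.

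Of 20 genes for the subunits of NRF-2, a second activator of respiratory chain genes, and for the machinery of mitochondrial DNA, 5 rose (25%, against 16.5% of all genes tested) and 1 fell (5%, against 15.0%), and the median was 0.02. *Slirp* and *Lrpprc*, partners that stabilize mitochondrial mRNAs, rose by 0.44 and 0.43 on the log2 scale (edgeR adjusted p = 0.0111 and 0.0194). *Polrmt*, the mitochondrial RNA polymerase, rose by 0.38 (adjusted p = 0.0306) and *Gabpa*, the DNA-binding subunit of NRF-2, by 0.29 (adjusted p = 0.0303). *Mterf3*, a repressor of mitochondrial transcription, fell by 0.44 (adjusted p = 0.0138). *Tfb2m* (0.22, adjusted p = 0.154) and the sparsely counted *Tfb1m* (−0.31, adjusted p = 0.539) did not pass the test, and *Tfb1m* was above 0 without WH7 or WH10. Without WH9, when calls over all genes fell from 4490 to 1564, 0 of the 20 genes were higher and 0 lower. The log2 fold changes were then 0.44 for *Slirp* (adjusted p = 0.102), 0.37 for *Lrpprc* (0.154), 0.48 for *Polrmt* (0.0708), 0.31 for *Gabpa* (0.172) and −0.35 for *Mterf3* (0.166). Without WH10, 1 was higher (*Lrpprc*) and 0 lower, and without WH7, 3 were higher, *Polrmt* being lost (adjusted p = 0.077) and *Lrpprc* at 0.27. With DESeq2 the adjusted p was 0.12 for *Gabpa* and 0.0825 for *Polrmt*, and with library totals as scaling 0.126 and 0.0952. Exons of *Slirp*, *Gabpa*, *Mterf3* and *Tfb1m* overlap other genes.

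The known PPAR targets were divided. Of 26 genes 12 rose (46.2%, against 16.5% of all genes tested) and 7 fell (26.9%, against 15.0%), around a median of 0.18 on the log2 scale. *Fabp3*, the fatty acid binding protein of heart, rose from 20453 and 25593 to 53883 and 49567 normalized counts (log2 fold change 1.17), *Ucp2*, a mitochondrial carrier, rose by 0.92 and *Acadvl*, the first enzyme of long-chain beta-oxidation, by 0.67. *Pdk4*, the kinase that closes pyruvate dehydrogenase, rose by 0.61 (edgeR adjusted p = 0.0306). In contrast *Angptl4*, a secreted inhibitor of lipoprotein lipase, fell from 864 and 1020 to 512 and 478 normalized counts (log2 fold change −0.93), the acyl-CoA thioesterase gene *Acot1* fell by 0.87 and *Ucp3*, a PPAR-responsive carrier of muscle mitochondria, fell by 0.77. *Ppara*, at 1.32-fold, therefore rose beside targets that moved both ways. *Cpt1b*, the muscle form of the gatekeeper of fatty acid entry, was lower (−0.71, adjusted p = 0.0423), but on only 71 to 107 reads a library, and its exons overlap those of a read-through gene.

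The size of some target changes depended on the Ctrl libraries, which lay apart. The summed atrial markers of these libraries also lay apart (5890 CPM in WH7 and 702 CPM in WH8), and their part in the target values was not tested. Without WH7 and without WH8, the log2 fold change was −1.18 and −0.51 for *Acot1*, −1.11 and −0.36 for *Ucp3*, −0.99 and −0.42 for *Cpt1b*, and 0.30 and 0.99 for *Pdk4*, and the call of *Cpt1b* was lost without WH8 (adjusted p = 0.182). With a *miR-128*OE library left out, the fold changes moved less and calls were lost. Without WH9 the adjusted p was 0.177 for *Pdk4* (0.49), 0.106 for *Ucp3* (−0.70) and 0.193 for *Cpt1b* (−0.66), and 7 PPAR targets were higher and 3 lower. Without WH10 it was 0.0561 for *Acot1* (−0.79), 0.057 for *Ucp3* (−0.82) and 0.136 for *Cpt1b* (−0.75), with 11 higher and 2 lower. With DESeq2 the adjusted p was 0.224 for *Pdk4*, 0.108 for *Ucp3* and 0.0873 for *Cpt1b*, and with library totals 0.0559 for *Pdk4*. Exons of *Ucp2*, *Fabp3* and *Acadvl* overlap other genes. Reads of *Acot1* may have been shared with its near-identical neighbor *Acot2* (log2 fold change 0.02).

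The genes listed as ERR targets moved one way. Each gene was placed in a single list, so a target of both ERRs and PPARs was counted only once. Such a target may stand among the 26 PPAR targets, of which 7 fell, so the contrast between the lists depends on that placing. All 13 were higher in *miR-128*OE hearts, against 16.5% of all genes tested, with log2 fold changes from 0.30 to 1.86 and a median of 0.73. Requiring a change of at least 1.5-fold left 9 of them. *Ckmt2*, the mitochondrial creatine kinase of striated muscle, rose from 2177 and 2627 to 8925 and 8462 normalized counts (log2 fold change 1.86, edgeR adjusted p = 8.86e-06). *Mb*, myoglobin, rose by 0.99, *Idh3b*, a subunit of isocitrate dehydrogenase, by 0.88 and *Cycs*, cytochrome c, by 0.55 on the log2 scale. Beside this, the summed ERR level overlapped between the groups, *Esrra* was not called and *Esrrb* was higher. The part of the receptors in the target values was not tested. Without WH9 11 of the 13 were higher, and without WH10 12. Exons of *Ckmt2*, *Mb* and *Idh3b* overlap other genes. The list was chosen with earlier results of these data known, so its count is a description. The summed CM markers given above were also higher in both *miR-128*OE libraries, and their part in the result was not tested.

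**Figure D4:**
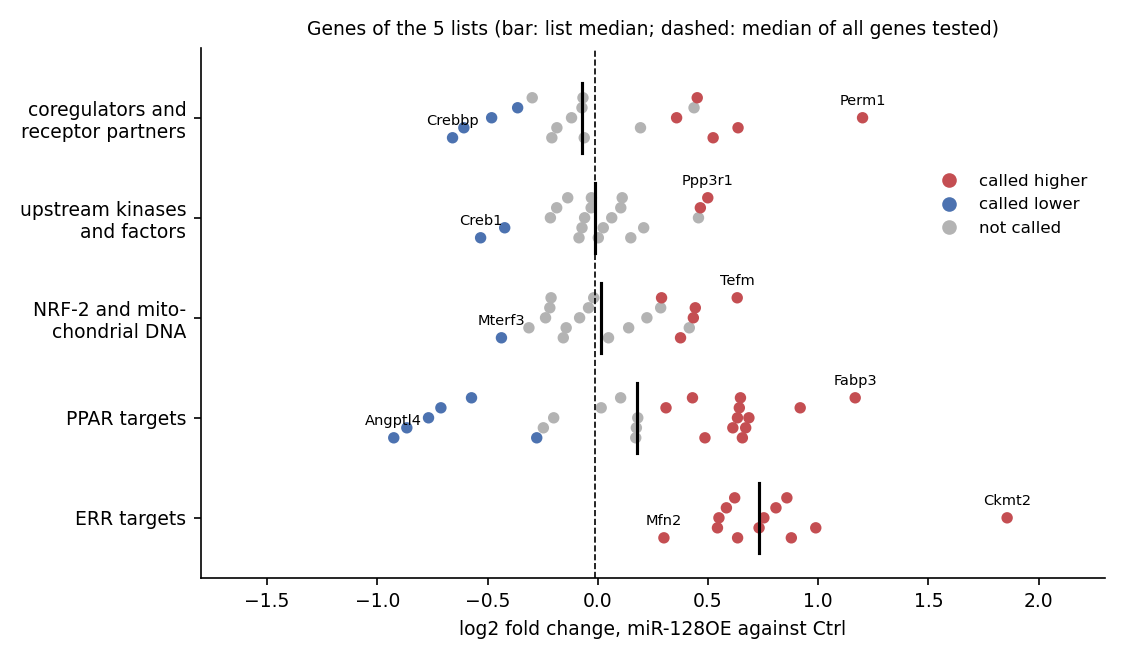
Log2 fold change (x axis, *miR-128*OE against Ctrl) of the genes in the 5 lists around the regulators (1 PPAR target is not drawn), red for called higher, blue for called lower and grey for not called. Black bars mark the list medians, 0.73 for ERR targets and 0.18 for PPAR targets, and the dashed line marks the median of all genes tested (−0.01).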

How the data were processed

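RNA-seq of P7 hearts gave 2 Ctrl and 2 *miR-128*OE libraries. The authors aligned the reads to mm10 with TopHat2 and deposited raw read counts per gene. The submitters' processing notes name bcl2fastq, TopHat and edgeR. Gene models and the handling of strand and of reads that fit several genes are not given in the sources used here. All genes were fitted by edgeR 4.0.16 under R 4.3.3 (filterByExpr with a minimum count of 10, TMM, quasi-likelihood test, Benjamini-Hochberg adjustment over 14266 genes, threshold 0.05). Standard errors were taken as the size of a log2 fold change over the root of its F statistic. Normalized counts are TMM-scaled, and levels are TMM-scaled CPM per kilobase of GENCODE M21 exon. Symbols came from RefSeq (GRCm38.p6) for 24381 of 24454 identifiers. Ratios of genes used counts plus 0.5. Reads copied by PCR are not independent molecules.

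The regulators and the 5 lists were chosen with earlier results of these data known. Named genes are the 10 regulators, the 3 called genes with the smallest p in each direction of each list, and a set named whatever their values. A gene under this rule is not reported here. *Acot2*, *Trmt112* and the marker genes are named for what they bear on. Alternatives were RLE, upper-quartile and total-count scaling, other filters, autosomal genes alone, a loess offset (span 0.5) for GC and length, DESeq2 1.42.0, edgeR's exact and likelihood ratio tests, a 1.5-fold minimum, and each library left out. Motifs and ratios were computed in Python 3.11.15 (scipy 1.17.1).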

Additional observations from a re-analysis of the deposited data

How the results depend on the processing

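Across the named genes and 14 alternatives, 553 values kept their direction and their side of the threshold, 38 lost the call, 2 gained it and 9 changed sign, the cause of which was not tested. The sign changed only in genes without a call. *Esrra* was at 0.036 without WH8 and 0.0427 without WH10 (−0.144 to 0.0427 with each library left out), *Nrf1* at −0.00485 with total counts and −0.0183 without WH10 (−0.0183 to 0.222), *Tfam* at −0.0718 with total counts and −0.0181 with upper-quartile factors, *Rxra* at 0.077 without WH10 (−0.175 to 0.077), and *Tfb1m* at 0.000981 without WH7 and 0.103 without WH10 (−0.792 to 0.103). The calls gained were *Esrrg* without WH8 and *Ppard* with the offset for GC content and length (adjusted p = 0.0469).

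Requiring a 1.5-fold change left 1 regulator higher and 0 lower, 2 coregulators higher and 2 lower, and 0 upstream genes higher and 0 lower. For NRF-2 and mitochondrial DNA it left 1 gene higher and 0 lower. It left 9 PPAR targets higher and 5 lower, and 9 ERR targets higher and 0 lower. Over all 14266 genes tested it left 935 higher and 1187 lower. DESeq2 gave 2 higher for NRF-2 and mitochondrial DNA and 4 lower PPAR targets. Total counts gave 2 higher for NRF-2 and mitochondrial DNA and 12 ERR targets higher. With each library left out, the number of regulators higher ran from 1 to 4 and lower from 0 to 1, coregulators higher from 2 to 5 and lower from 2 to 6, and upstream genes higher from 1 to 3 and lower from 1 to 3. For NRF-2 and mitochondrial DNA these were 0 to 5 higher and 0 to 1 lower, and for PPAR targets 7 to 16 higher and 2 to 8 lower. Over all genes, 1564 were called without WH9, 2285 without WH10 and 2122 at 1.5-fold, against 4490. With a library left out, the lone library of a group is assumed to vary like the other group. No paired analysis was possible because the labels give no replicate numbers, and those used here follow accession order and pair nothing. Depth limits *Esrrb* and *Pparg* most among the regulators, with 43 and 81 reads in WH8, the shallowest library.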
